A study of Mus musculus with 6 samples.

Results

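Tfrc encodes transferrin receptor 1, the membrane protein through which cells take up iron, and its transcript was measured in mouse cortex after sham surgery and after the middle cerebral artery had been occluded for a time and reopened (tMCAO), a model of ischemic stroke. It was read through a single probe, the one whose name column carries the RefSeq accession NM_011638.3, and that probe was printed as 20 spots on each array. Tfrc was thus 1 of 15 genes with an accession on an array of 60915 probes. The mice were 8-week-old males. In the tMCAO group the ischemic cortex was taken 12 h after reperfusion, and the labels call the other group sham with no further detail on the surgery. There were 3 single-colour arrays per group, each from its own RNA, and the strain is not stated in the labels used. The labels call these independent experiments, and the p-values below measure the spread between such samples. With 3 arrays to a group, the number of arrays sets the precision.

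Transferrin receptor binds iron-loaded transferrin at the cell surface, and the complex is taken into endosomes, where acid releases the iron. The receptor then returns to the surface. In brain it is known above all from the capillary endothelium, where it carries iron across the blood-brain barrier, and it is also made by neurons. Iron regulatory proteins are known to bind and stabilise its mRNA when iron is scarce, and hypoxia-inducible factor is known to raise its transcription. An array of bulk cortex reads the amount of mRNA alone, and fewer cells of a type and less RNA per cell cannot be told apart in it.

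The gene lies on chromosome 16, at chr16:32608896-32632794 on the plus strand of GRCm38.p6 by RefSeq, and is protein-coding. The array was designed on the earlier mm9 build, and where in the transcript the probe lies is not known here. The start of the gene is shown because hypoxia is one of the conditions to which its promoter is known to respond. The stretch below is chr16:32608646-32608925, that is 250 bases before the start of the gene and 30 after it, and capitals mark ACGTG and GCGTG, the letters at the core of hypoxia response elements, on either strand.
Tfrc promoter: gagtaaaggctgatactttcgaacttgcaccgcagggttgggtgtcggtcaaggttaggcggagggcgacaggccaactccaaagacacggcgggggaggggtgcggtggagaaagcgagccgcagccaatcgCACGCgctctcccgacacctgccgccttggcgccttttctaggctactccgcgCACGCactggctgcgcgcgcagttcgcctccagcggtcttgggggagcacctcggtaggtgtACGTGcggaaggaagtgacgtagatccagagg
This window is the first by position of 2 promoter windows of Tfrc, and the other is not shown. It holds 1 ACGTG, which lies across the start of the gene, and 2 copies of GCGTG on the minus strand, which read CACGC as printed. Of 32851 RefSeq promoter windows cut to the same length, 41.8% held at least 1 such match and 18.5% held ACGTG. A match of these letters is a description of the window and was not set against any reading of factor binding.

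The Tfrc probe was bright on every array. In sham, the median signal of its 20 spots was 62336, 64461 and 75859 intensity units (replicates 1, 2 and 3). In tMCAO it was 126095, 103975 and 81574 units, in the same order. Before any scaling, every tMCAO array thus lay above every sham array, by the least on tMCAO replicate 3. Local background was 25 or 26 units, each array had all 20 spots well above it, with 0 saturated. Of the 120 spots, 4 carried the scanner software's outlier mark and were left out, which left 19 or 20 per array.

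The arrays themselves also differed in brightness. The 75th percentile of the non-control spots was 555.5, 605.9 and 705.5 units in sham (replicates 1, 2 and 3) and 934.6, 918.6 and 537.2 units in tMCAO. tMCAO replicate 3, which had the lowest unscaled Tfrc signal of its group, thus had the lowest percentile of all. The share of probes detected above background ranged from 70.1% to 73.9%. All 6 arrays were read in 1 scan.

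Relative to that percentile, Tfrc stood at 6.81, 6.73 and 6.75 log2 units in sham (replicates 1, 2 and 3). In tMCAO it stood at 7.07, 6.81 and 7.25. The sham arrays lay close together, whereas the tMCAO arrays were spread out: replicate 3 was highest, replicate 1 lay between, and replicate 2 lay at the upper edge of sham. Against the sham mean, tMCAO replicate 3 was 0.48 log2 units higher (1.40-fold), replicate 1 was 0.30 higher (1.23-fold) and replicate 2 was 0.051 higher (1.04-fold).

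**Figure D1:**
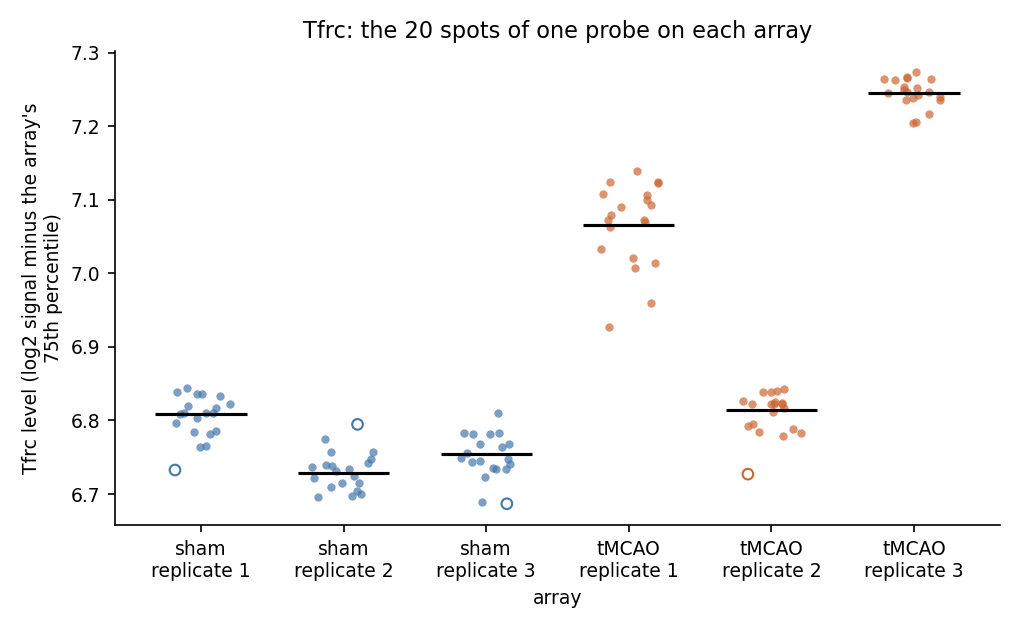
Level of each of the 20 Tfrc spots (points; open circles are spots with an outlier mark) and the mean of the unmarked spots (black bar) on each array, as log2 signal minus the array's 75th percentile. The spots of tMCAO replicates 1 and 3 lie above every sham spot, and those of tMCAO replicate 2 lie among the spots of sham replicate 1.

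The 3 sham arrays had a mean level of 6.76 ± 0.041 (SD) and the 3 tMCAO arrays one of 7.04 ± 0.22 (SD). Tfrc was therefore estimated at 0.28 ± 0.13 log2 units (SE) above sham, or 1.21-fold, with a 95% interval from -0.031 to 0.59, and it did not pass the test (limma over all probes, adjusted p = 0.317). The interval thus reaches from a level slightly below sham to one clearly above it, and the data do not show that Tfrc mRNA was alike in both groups. Of the 44288 probes tested, 1.42% passed the threshold in either direction (1.24% as higher and 0.187% as lower), and 22.6% had a smaller p-value than Tfrc. An exact two-sided permutation test on the 6 array means gave p = 0.1, the smallest that 3 arrays against 3 can give.

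On the scale used here, every tMCAO array lay above every sham array for Tfrc, as for 11.6% of the tested probes. The margin for Tfrc was not resolved by its own spots on this scale. The lowest tMCAO array, replicate 2, exceeded the highest sham array, replicate 1, by 0.0058 log2 units, and the standard error of that gap from the spots was 0.0074. The 20 positions of the probe were also compared, here with outlier-marked spots kept. On tMCAO replicate 2, 11 positions were above every sham array, and 0 were above the highest of all sham spots. For tMCAO replicates 1 and 3, all 20 positions were above every sham array, and all 20 also exceeded the highest sham spot.

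The spots within an array agreed far more closely than the arrays did. In sham, the SD over the unmarked spots was 0.024, 0.022 and 0.027 log2 units (replicates 1, 2 and 3), and in tMCAO it was 0.057, 0.021 and 0.019. This corresponds to a coefficient of variation between 1.34% and 3.86% of the signal, below the error of 10% that the scanner software attached to the median spot. As standard errors of the array mean, the spots gave 0.0044 to 0.013 log2 units. The SD between sham arrays, 0.041, was thus above the spot error, and that between tMCAO arrays, 0.22, was far above it. The 20 spots share the RNA of 1 sample, so they describe how well an array was read and not how well a group was sampled.

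Part of the scatter among spots recurred at the same positions, though not equally on all arrays. Over 15 pairs of arrays, spot levels correlated with a median r of 0.37 (range -0.21 to 0.89, outlier-marked spots kept). The lowest r was 0.21 without sham replicate 2. The spot in row 15 and column 21 of the array's 384 rows and 164 columns was the lowest of the 20 on 5 of the 6 arrays and carried 3 of the 4 outlier marks. The spread of tMCAO replicate 1 was the widest, and its spots lay from 0.21 to 0.38 log2 units above the sham mean at the same position. On tMCAO replicate 3 this range was 0.44 to 0.52, and on replicate 2 it was 0.0082 to 0.07. These ranges include outlier-marked spots, and the 0.0082 belongs to a marked spot. Halving the array by rows left the group difference near its value over all spots, at 0.27 with the spots of the upper rows and 0.28 with those of the lower rows.

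**Figure D2:**
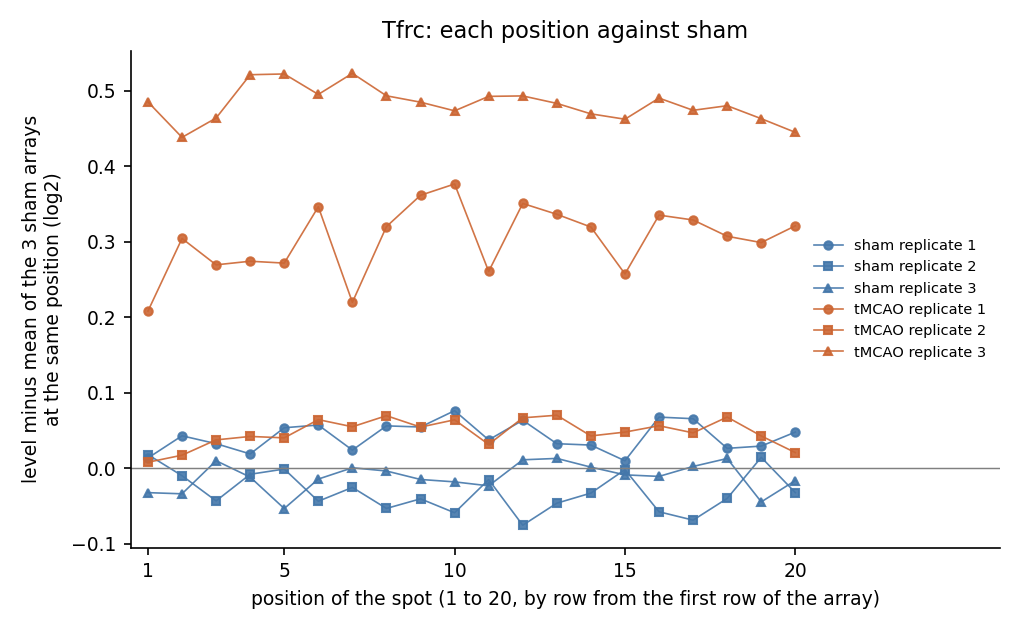
Level at each of the 20 positions of the Tfrc probe, ordered by array row, minus the mean of the 3 sham arrays at that position (log2), with 1 line per array. Outlier-marked spots are included. The lines of tMCAO replicates 3 and 1 stay apart from sham at all positions, and that of tMCAO replicate 2 runs along that of sham replicate 1.

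How far Tfrc stood above sham depended on how the arrays were scaled to each other. The authors' normalized table gave Tfrc as 16.38, 16.17 and 16.27 log2 units in sham (replicates 1, 2 and 3) and as 16.46, 16.06 and 16.67 in tMCAO. In that table tMCAO replicate 2 was the lowest of all 6 arrays, so the groups overlapped. The difference was 0.13 ± 0.16 log2 units (SE; limma, adjusted p = 0.690), well under that given above. Quantile normalization of the scanner signals gave nearly the same Tfrc values, no more than 0.019 log2 units from those of the table, and a difference of 0.13 ± 0.16 (SE; limma, adjusted p = 0.681).

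With median centring the difference was larger, at 0.35 ± 0.11 log2 units (SE), and did not pass the threshold either (limma, adjusted p = 0.205). With the mean of 13 other accession-named genes as the reference it was 0.25 ± 0.13 (SE; limma, adjusted p = 0.336), and the groups overlapped by 0.033. Without any scaling, an alternative chosen after seeing the data, it was 0.60 ± 0.33 (SE; limma, adjusted p = 0.544). In all 6 scaled versions tMCAO replicate 3 was the highest array, replicate 1 the next, and replicate 2 the lowest of its group, whereas the order without scaling was replicate 1, then 2, then 3.

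**Figure D3:**
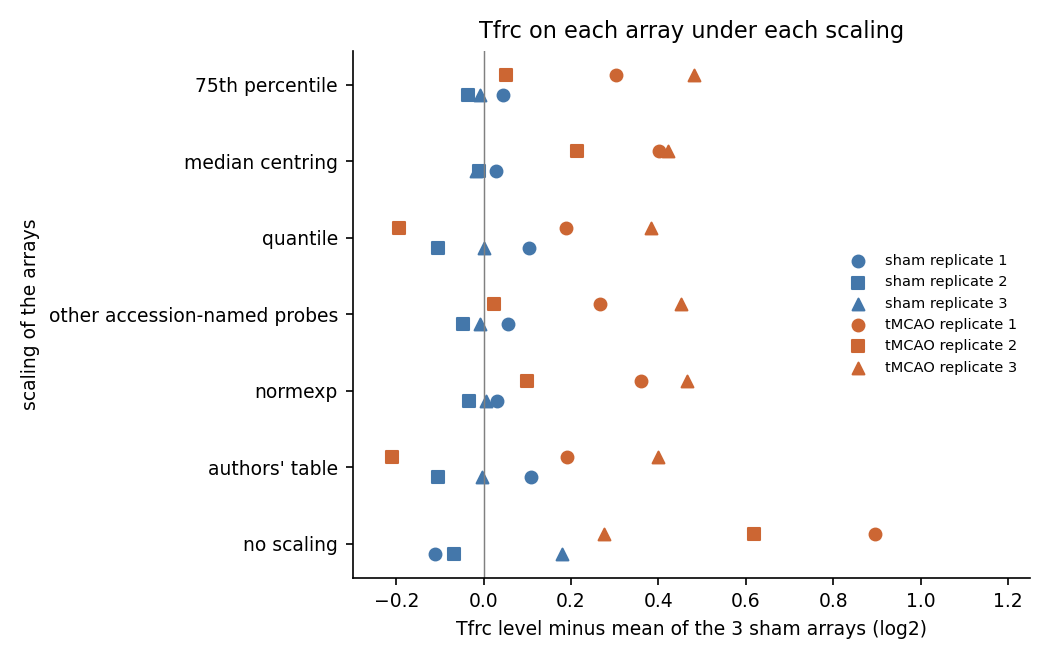
Tfrc on each array minus the mean of the 3 sham arrays (log2) under each way of scaling the arrays, with sham in blue and tMCAO in orange and a symbol for each replicate number. The tMCAO arrays lie to the right of sham with the 75th percentile, median centring, normexp and no scaling, and tMCAO replicate 2 falls below all sham arrays with quantile normalization and in the authors' table.

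Probes about as bright as Tfrc also differed in level between arrays. Over the 605 tested probes whose mean level lay within 0.5 log2 units of that of Tfrc, the median distance from the sham mean was -0.0034, 0.13 and 0.025 log2 units on tMCAO replicates 1, 2 and 3. Tfrc was above these medians on replicates 1 and 3 and below the median on replicate 2, where it stood at 0.051. Over all 44288 tested probes the medians were -0.05, -0.094 and 0.015. Whether the brightness of these probes has a part in the Tfrc value of replicate 2 was not tested.

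The result also leaned on single tMCAO arrays. Without tMCAO replicate 3 the difference was 0.18 ± 0.12 log2 units (SE; limma, adjusted p = 0.370), and without tMCAO replicate 2 it was 0.39 ± 0.13 (SE; limma, adjusted p = 0.240). A barcode field in the file headers was read as the row and column of each array on the slide. So read, the first of 2 rows held sham replicates 1 and 2 and tMCAO replicates 1 and 2. The second held replicate 3 of each group. Within the first row the difference was 0.17 ± 0.15 (SE; limma, adjusted p = 0.510), and within the second, with 1 array per group and hence no test, it was 0.49. With the slide row as a block it was 0.28 ± 0.13 (SE; limma, adjusted p = 0.284).

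The unequal spread of the groups can be set beside that of other probes, though not like for like. Tfrc was averaged over 19 or 20 spots per array, whereas the 60915 probes of the array shared 61500 non-control spots. Most other probes were thus read from a single spot, and their SDs include the noise of that spot. The SD of Tfrc was 5.29 times as large in tMCAO as in sham, where the median ratio over 44103 probes with a value on every array was 1.39, and 92.8% of probes had a smaller ratio. On this scale 8.23% of probes had a smaller SD than Tfrc among sham arrays, and 62.5% had a smaller SD among tMCAO arrays. The ratio depended on the scaling. It was 2.84 with quantile normalization and 2.90 in the authors' table, where the sham SD of Tfrc was 0.10 and 0.11 log2 units and the median ratio was 1.27 in both. Without scaling it was 1.98, below the median ratio of 2.16. Relative to the 75th percentile, the order of its tMCAO arrays, with replicate 3 highest and replicate 2 lowest, was shared by 26% of these probes.

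The other 14 genes with an accession, several of which serve with Tfrc as reference genes for quantitative PCR, gave a measure of what such transcripts did on the same arrays. Their differences from sham ran from -0.21 to 0.56 log2 units with a median of -0.057, 5 above and 9 below 0, where the median over all tested probes was -0.05. Tfrc ranked after B2m, the light chain of class I histocompatibility molecules, at 0.56, and Gusb, a lysosomal enzyme, at 0.46. Of the 14, 0 passed limma's test over all probes and 2 had an unadjusted p under 0.05, namely B2m and Gusb, as did 17.9% of all tested probes. Gk, the glycerol kinase gene, entered with 2 tMCAO values because all its spots on replicate 2 carried outlier marks.

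The array on which these genes stood highest varied. On tMCAO replicate 3, where Tfrc was 0.48 log2 units above sham, the median of the other 14 was -0.01, and on replicate 1 it was -0.02. On replicate 2, where Gk had no value, the median of the remaining 13 was -0.024. B2m lay above sham by 0.56, 0.63 and 0.48 on tMCAO replicates 1, 2 and 3, with no array apart. Gusb stood highest on replicate 1, at 0.65, with 0.38 and 0.35 on replicates 2 and 3. Tbp, the TATA-binding protein gene, was also highest on replicate 1, at 0.47, against 0.17 and 0.034. Of the 13 genes with a value on every array, replicate 3 was the highest tMCAO array for 4, and it was for 45.4% of all probes.

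**Figure D4:**
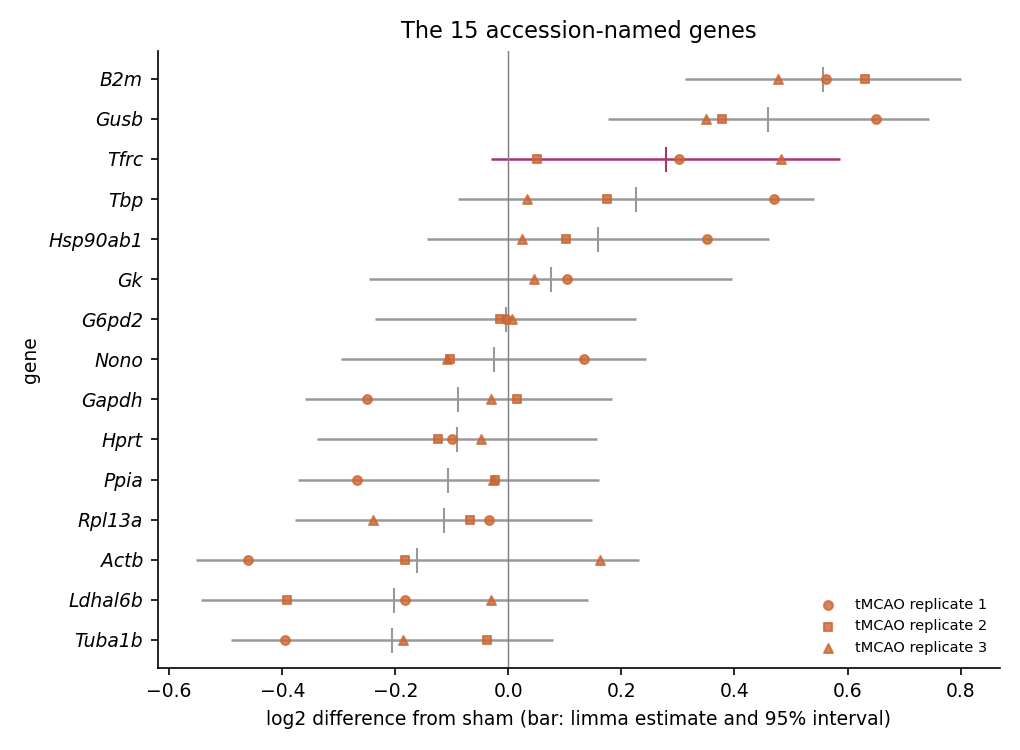
Difference from sham of the 15 accession-named genes (log2), with limma's estimate and 95% interval as bars, Tfrc in purple, and the 3 tMCAO arrays as points relative to the sham mean. Tfrc lies below B2m and Gusb, and tMCAO replicate 3 is its highest array, whereas replicate 1 or 2 is the highest for B2m, Gusb and Tbp.

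By distance over the 6 arrays, the nearest of the named genes to Tfrc were Gusb, G6pd2 and Tbp. This distance is also small for a gene that varies little, so a low rank need not mean a shared profile. After each gene was centred on its mean, the root mean square distance to Tfrc was 0.18 log2 units for Gusb, 0.19 for G6pd2, a retrotransposed copy of the glucose-6-phosphate dehydrogenase gene, and 0.20 for Tbp. These are not close matches: 6997 of 44102 other tested probes (15.9%) were nearer to Tfrc than Gusb was, and the median distance over all probes was 0.26. Among the 13 genes the distance ranged up to 0.31, for the tubulin gene Tuba1b. G6pd2 was itself flat, with a difference from sham of -0.0047, and whether transcripts of the gene it was copied from hybridize to its probe was not examined.

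The rest of the iron pathway could not be read by name on these arrays. Of 16 genes of iron uptake, which include the transferrin gene, the divalent metal transporter Slc11a2 and the endosomal ferrireductase Steap3, 1 was paired with a probe, Tfrc itself. Of 19 genes of iron storage, export and regulation, such as the ferritin genes Fth1 and Ftl1, the exporter ferroportin (Slc40a1) and the iron regulatory protein genes Aco1 and Ireb2, 0 were. The same held for 9 hypoxia-regulated genes (0 named) and for ferroptosis, where Tfrc was 1 of 6. Marker lists of neurons, astrocytes, microglia, oligodendrocytes, brain endothelium, erythroid cells and neutrophils had 0 named members of 4 each, so the tissue was not checked against its markers, and their part in the Tfrc values was not tested.

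**Figure D5:**
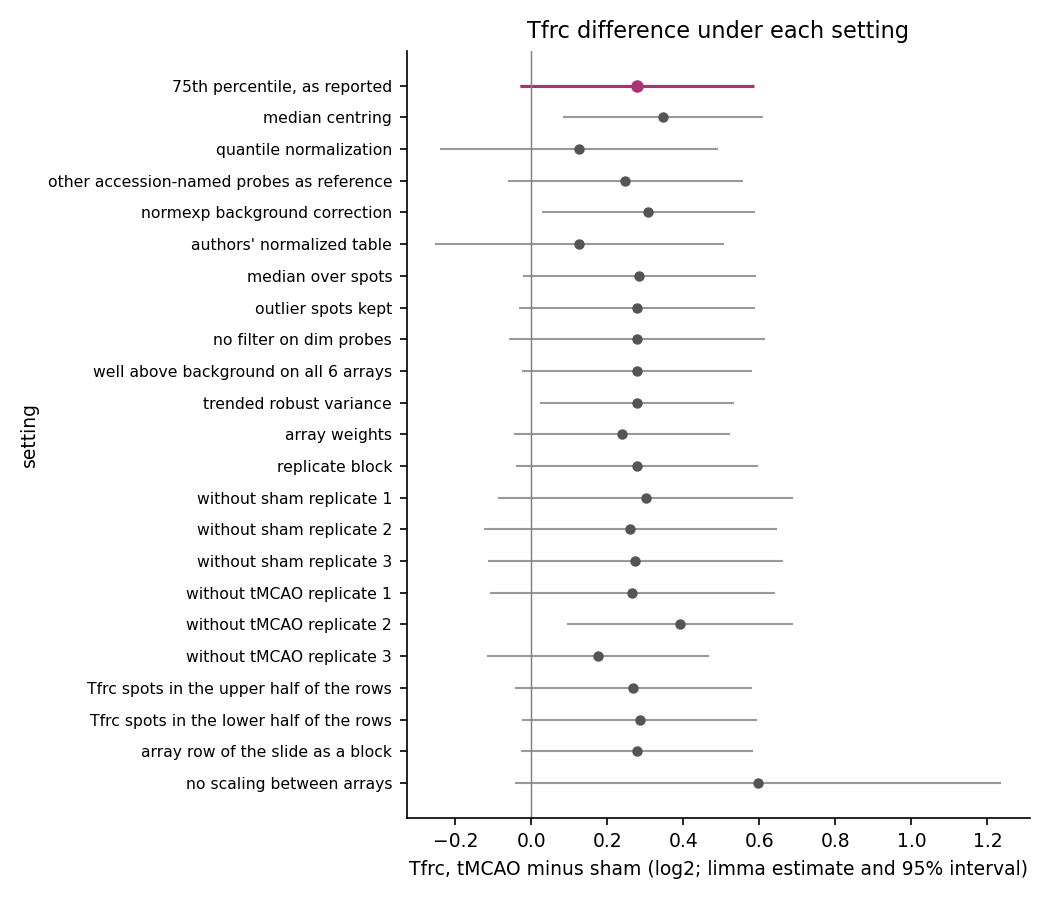
Difference of Tfrc between tMCAO and sham (log2, limma estimate and 95% interval) under the scale used here (purple) and under each alternative (grey). All estimates lie above 0, from 0.13 to 0.60, and most intervals include 0.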

How the data were processed

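RNA of 6 cortex samples was hybridised to single-colour Agilent arrays. The authors deposited each array's scanner table, for which the submitters' processing notes name Agilent Feature Extraction 11.0.1.1, with spot intensity on a linear scale and no normalization between arrays. The design used build mm9, per the file headers. On all 120 Tfrc spots the processed signal equalled the background-subtracted signal within 0.001 of its value. The authors also deposited a table of normalized log2 values of the same arrays. The labels and headers do not state its method or how it was centred. All columns of that table had a median of 6.89, and over 44210 probes they tracked the log2 signal of their own array (r of at least 0.9999).

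Here the log2 processed signal was taken relative to the array's 75th percentile over 61500 non-control spots, outlier-marked spots were dropped, and the spots of a probe were then averaged. A probe was tested if at least a share of 0.5 of its spots was well above background on at least 3 arrays and each group had at least 2 values. The groups were compared with limma 3.58.1 under R 4.3.3 (two-sided lmFit and eBayes, leaving 4 residual degrees of freedom), with p-values adjusted over 44288 probes by Benjamini-Hochberg and a threshold of 0.05. The fit was run on simulated data with known changes, all far larger than the Tfrc difference. That run therefore does not bear on changes as small as that of Tfrc. RefSeq (GRCm38.p6) gave the symbols of all 15 accessions, and the promoter sequence. Alternatives were other scalings, normexp background correction with an offset of 50, filters, spot summaries, variance models, blocks and leaving out each array, of which the slide row and no scaling were added after seeing the data. Probes named as negative were not tested. Named genes were Tfrc, the other accession-named genes as a group, and the 3 nearest to Tfrc by root mean square distance, while B2m, Gk and Tuba1b were added after their values were seen. Gene, lists and rules were chosen with earlier results of these data known. Files were read with data.table, version 1.17.8, and plots drawn with matplotlib 3.10.9.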

Additional observations from a re-analysis of the deposited data

How the results depend on the processing

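The difference of Tfrc lay above 0 under all 22 alternatives and passed the threshold under 0 of them (limma), with values from 0.13 to 0.60 log2 units and adjusted p from 0.205 to 0.690. All of them share arrays, and their common direction adds no support. Leaving out 1 array gave 0.18 to 0.39 (limma, adjusted p = 0.240 to 0.514). The 95% interval lay above 0 with median centring (0.083 to 0.61), normexp (0.028 to 0.59), a trended robust variance (0.024 to 0.53) and without tMCAO replicate 2 (0.094 to 0.69), in each case with an adjusted p over the threshold. The exact permutation test was run on the array means of the versions that kept all 6 arrays and changed the Tfrc values or the probes tested. Its p was 0.1 where the groups did not overlap, 0.2 with the named genes as reference, and 0.6 with quantile normalization and in the authors' table. With outlier spots kept, the SD over spots was at most 0.057, and Tfrc differed by 0.28. The values did not show a pairing of the samples by replicate number, though 3 arrays per group are too few to exclude one. The correlations of same-numbered deviations were 0.021, 0.095 and 0.13, and 1 of the 3 sham arrays matched its own number best. With replicate number as a block the Tfrc difference was 0.28 (limma, adjusted p = 0.314), and 411 probes passed in place of 630. The number of probes that passed was 370 with normexp, 263 with no filter on dim probes, 1294 with no scaling and 101 to 1062 without 1 array, and it was within 1.5 times of 630 under the other 9 alternatives that refitted all probes. A block for slide or scan was not run because all arrays share 1 scan. The Tfrc spots lay far above background, from 59078 intensity units upward, against a median background of at most 26.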
